A study of Rattus norvegicus with 56 samples.

Results

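The 10 genes described here mark the cells of blood vessels and their surrounding connective tissue, and were measured on microarrays of cultured rat hippocampal neurons. They were found through the RefSeq accession that the array design gives each probe, with the probe of highest mean signal standing for a gene with several. They comprise 5 endothelial genes (Cldn5, Pecam1, Flt1, Kdr and Cdh5), 3 mural genes (Rgs5, Pdgfrb and Acta2) and 2 fibroblast genes (Dcn and Lum), out of 16575 genes with a symbol on the array. All 10 had a probe. For Kdr the spot on 1 sham array at 2 h was an outlier and held no value, so Kdr was fitted separately on 54 arrays, and 9 genes entered the tests over 35694 probes.

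Endothelial cells line vessels and are held together by the adhesion proteins encoded by Pecam1 and Cdh5 (VE-cadherin), sealed by the tight-junction protein of Cldn5, and respond to vascular endothelial growth factor through the receptors Flt1 and Kdr. Mural cells, the pericytes and smooth muscle cells, wrap that tube. Pericytes are recruited through the receptor Pdgfrb and are rich in Rgs5, a regulator of G-protein signalling, while smooth muscle uses the actin of Acta2. Perivascular and meningeal fibroblasts make collagens and the small leucine-rich proteoglycans decorin (Dcn) and lumican (Lum). They are used as markers of the vessels and meninges in brain tissue, and several are also made by other cells, including glia.

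All cultures came from hippocampi of Sprague-Dawley rats at embryonic day 18 and were kept in Neurobasal medium with B27. They were stimulated with a magnetic coil run at 15% of its maximum output, as 1 Hz pulses or as intermittent theta burst stimulation (iTBS), or had a sham treatment with the coil about 20 cm away, and RNA was taken 0, 2, 8, 24 or 48 h afterwards. An untreated group was taken at 0 h only. The 16 groups held 3 to 4 arrays each. The array of replicate 2 of 1 Hz at 2 h failed its grid check and was dropped, so 55 arrays were used (17 sham, 16 1 Hz, 18 iTBS and 4 untreated).

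The sample numbers in the descriptions run in 4 sequences, named here series A (11 arrays), B (12), C (17) and D (15), and the labels do not say what a series stands for. Each series held at most 1 array of a given stimulated or sham arm at a given time. Series A, B and C lay on separate slides (1 and 2, 3 and 4, 5 to 7), whereas series D was spread over all 7. Between 66.1% and 81.8% of spots were well above background per array. Nothing in the labels says that arrays of a group came from separate embryos or dissections, so p-values measure only the spread between these arrays, which may be technical. Levels below are log2 signals scaled so that each array has a mean of 0 and the same spread. A level of 0 is therefore the average probe, and levels of different genes were not set against each other.

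The neuronal label held on every array: Snap25, a protein of the synaptic release machinery, had medians of 6.55, 5.83, 5.80 and 6.75 in series A, B, C and D. Glial markers were also present. The astrocyte gene Gfap had medians of 2.36, 4.15, 3.49 and 5.19, and the myelin gene Mbp 4.62, 6.36, 9.29 and 2.56.

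Members differed widely in how often they were detected. Dcn, Lum, Pdgfrb, Acta2 and Cdh5 were well above background on 55 of 55 arrays, Kdr on 54 of 54 and Pecam1 on 53 of 55. By contrast Rgs5 was well above background on 12 arrays, Cldn5 on 6 and Flt1 on 4, and the second probes of Rgs5 and Flt1 on 0. Defining markers of brain endothelium (Cldn5, Flt1) and of pericytes (Rgs5) were thus at or near background on most arrays, while other members of the same groups were measured on nearly all of them. In bulk RNA fewer cells of a type and less RNA per cell cannot be told apart.

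**Figure D1:**
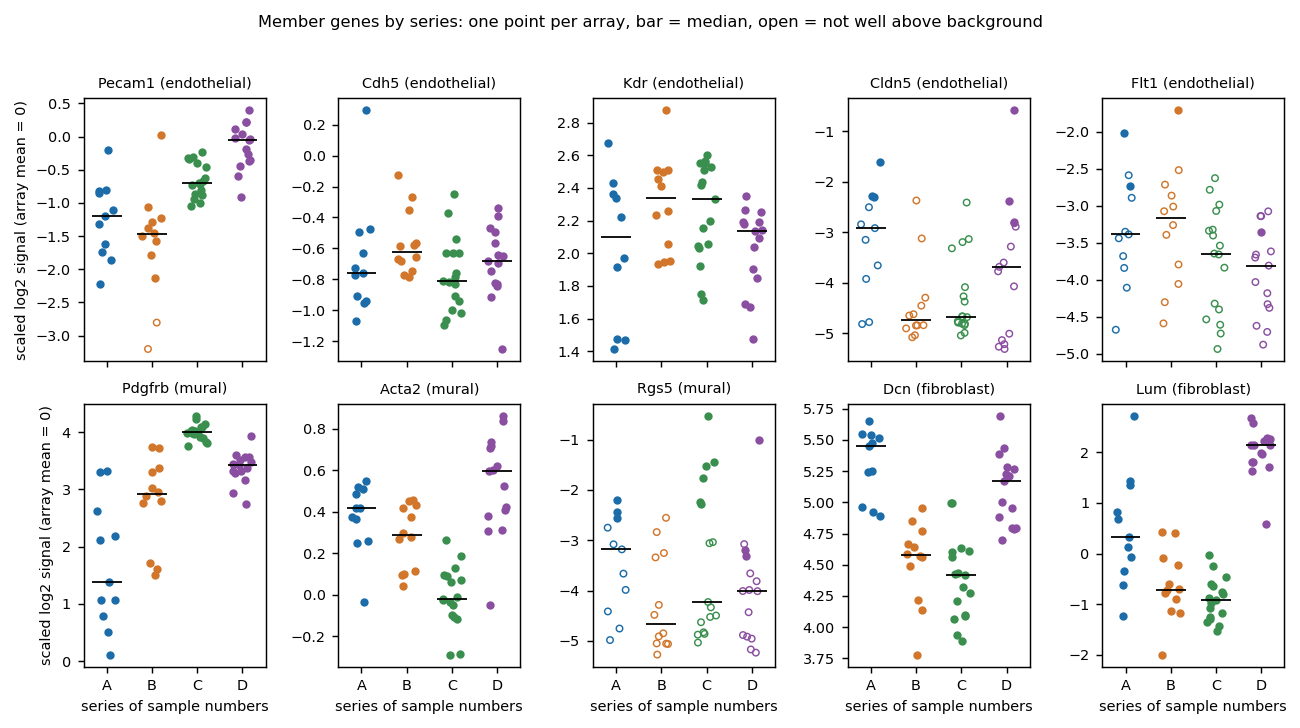
Scaled log2 signal (vertical axis, array mean 0) of the 10 genes in series A to D (horizontal axis), with a point for each array, a bar at the median and open points where the spot was not well above background. Lum was highest in series D and Pdgfrb in series C, while Cldn5, Flt1 and Rgs5 were mostly open points in every series.

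Between the series 5 members passed and over time 4, beside 75.4% and 27% of all probes, while none passed between arms. Of the 9 genes tested, 5 differed between the series (moderated F test of limma, Benjamini-Hochberg adjusted over all probes), beside 75.4% of all probes, so the share of members was not above that of the array. The 5 were Lum (adjusted p = 1.25e-16), Pdgfrb (1.71e-11), Dcn (2.09e-10), Pecam1 (5.59e-09) and Acta2 (1.92e-07). Cdh5 (0.423), Flt1 (0.137), Rgs5 (0.0926) and Cldn5 (0.0596) did not pass, and neither did Kdr in its own fit (0.0745). Over the 6 pairs of series, 25 of 54 member comparisons passed, beside 42.2% of all probe comparisons. Each adjusted p below is from limma with series and group in the fit.

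Among the fibroblast genes, Lum encodes lumican, which spaces collagen fibrils. Its lowest, median and highest levels were −1.23, 0.32 and 2.72 in series A, −1.997, −0.72 and 0.43 in series B, −1.53, −0.92 and −0.03 in series C, and 0.59, 2.13 and 2.69 in series D. Every array of series D lay above every array of series B and C, a separation shown by 6.30% and 8.14% of all probes for those pairs, while series A overlapped all the others. Series D exceeded series C by 2.95 ± 0.18 (SE, adjusted p = 7.76e-17), series B by 2.59 ± 0.20 (4.91e-14) and series A by 1.65 ± 0.21 (3.90e-08). B minus A was −0.94 ± 0.23 (0.00158) and C minus A −1.31 ± 0.20 (1.88e-06), but these series lie on separate slides and both calls ended with the slide as a block (0.336 and 0.179).

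Dcn encodes decorin, which binds collagen and growth factors. Its lowest, median and highest levels were 4.89, 5.45 and 5.65 in series A, 3.78, 4.58 and 4.96 in series B, 3.89, 4.41 and 4.99 in series C, and 4.70, 5.18 and 5.69 in series D. The order was thus A and D above B and C, with overlap between all pairs. Series D exceeded C by 0.74 ± 0.09 (adjusted p = 1.07e-08) and B by 0.57 ± 0.10 (7.69e-06). The neighbours in that order did not pass the test, D minus A being −0.13 (0.355) and C minus B −0.17 (0.202). Dcn and Lum therefore shared their low values in series B and C but differed in series A, where Dcn was at the level of series D and Lum was not. Over the 55 arrays their Pearson r was 0.76, and 0.69 after the series means were removed. These arrays share slides and series, and the values are a description.

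Pdgfrb, the receptor for platelet-derived growth factor B on pericytes, followed another order. Its lowest, median and highest levels were 0.12, 1.38 and 3.32 in series A, 1.51, 2.92 and 3.75 in series B, 3.76, 4.00 and 4.28 in series C, and 2.74, 3.43 and 3.93 in series D. All 17 arrays of series C lay above all arrays of series A and B, as did those of 2.63% and 1.48% of all probes in those pairs in either direction. All 6 pairs passed, although B against A did not with the slide as a block (adjusted p = 0.57), nor did B against A (0.138), D against B (0.12) or D against C (0.176) with sham and untreated arrays only. Series C exceeded A by 2.36 ± 0.21 (adjusted p = 1.26e-11), and B by 1.27 ± 0.20 (6.64e-06), and D minus C was −0.68 ± 0.19 (0.00259). Series D exceeded A by 1.69 ± 0.22 (5.71e-08) and B by 0.60 ± 0.21 (0.0145), and B exceeded A by 1.09 ± 0.24 (0.000539). Series A had the widest range.

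Acta2, the smooth muscle actin, varied over a narrower range. Its lowest, median and highest levels were −0.04, 0.42 and 0.55 in series A, 0.04, 0.29 and 0.46 in series B, −0.29, −0.02 and 0.27 in series C, and −0.05, 0.60 and 0.86 in series D. All series overlapped. Series C was the lowest, with D minus C at 0.54 ± 0.07 (adjusted p = 4.48e-08), C minus A at −0.40 ± 0.08 (0.000114) and C minus B at −0.28 ± 0.08 (0.00476), whereas Pdgfrb was highest there. The slide block ended C against A (0.50) and C against B (0.146). D minus B was 0.26 ± 0.08 (0.00522), a call that the 75th percentile scaling ended (adjusted p = 0.143). The third mural gene, Rgs5, was well above background on 3, 0, 6 and 3 arrays of series A to D, and no pair of series passed for it.

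Of the 5 genes that differed between series, RefSeq promoters (build GRCr8) were at hand for Lum and Acta2, which are printed to show the upstream sequence of 1 fibroblast and 1 mural gene of these 5. They are the 250 bases before the annotated start, 5′ to 3′ on the gene's strand, at chr7:34245456-34245705 (plus strand) for Lum and chr1:241172504-241172753 (minus strand) for Acta2. Capitals mark matches on either strand to TATATA, to CANNTG (the E-box pattern) and to CCAAT, motifs with no overlap here.
Lum: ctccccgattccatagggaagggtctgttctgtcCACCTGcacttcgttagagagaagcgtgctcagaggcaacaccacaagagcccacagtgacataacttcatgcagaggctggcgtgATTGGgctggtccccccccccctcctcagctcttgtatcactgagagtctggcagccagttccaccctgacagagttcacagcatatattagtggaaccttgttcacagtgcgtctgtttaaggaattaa
Acta2: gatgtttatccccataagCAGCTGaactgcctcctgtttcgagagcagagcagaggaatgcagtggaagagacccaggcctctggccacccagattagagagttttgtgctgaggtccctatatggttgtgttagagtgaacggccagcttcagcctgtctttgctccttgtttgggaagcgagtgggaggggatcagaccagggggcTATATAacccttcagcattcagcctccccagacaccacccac
The Acta2 window held a CANNTG from −232 to −227 and a TATATA from −42 to −37, counted from the start. The Lum window held a CANNTG from −216 to −211 and a CCAAT on the opposite strand from −130 to −126. Of 33469 promoters, 65.5% held CANNTG, 34% CCAAT and 5.45% TATATA in the same window. The matches describe letters only.

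Of the endothelial genes, Pecam1, an adhesion molecule of endothelial junctions that platelets and leukocytes also carry, differed between series. Its lowest, median and highest levels were −2.22, −1.20 and −0.21 in series A, −3.20, −1.48 and 0.03 in series B, −1.04, −0.71 and −0.23 in series C, and −0.91, −0.05 and 0.40 in series D. The series overlapped. Series D exceeded B by 1.47 ± 0.18 (adjusted p = 5.34e-09), A by 1.20 ± 0.19 (2.07e-06) and C by 0.49 ± 0.16 (0.00928), and series C exceeded B by 0.97 ± 0.17 (3.70e-05) and A by 0.70 ± 0.18 (0.00158). D against C was lost with quantile normalization (adjusted p = 0.0827).

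Cdh5, which encodes the cadherin of endothelial junctions, ran flat by comparison. Its medians were −0.76, −0.62, −0.81 and −0.68 in series A to D, within ranges from −1.25 to 0.29 over all arrays, and no pair of series passed. Cdh5 and Pecam1, both junction proteins of the same cell type, had an r of −0.25 over the 55 arrays and −0.17 within series.

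Kdr, the main signalling receptor for vascular endothelial growth factor, had medians of 2.10, 2.34, 2.34 and 2.14 in series A to D, within a range from 1.41 to 2.88. In its own fit D minus B was −0.30 ± 0.13 (adjusted p = 0.0453) and D minus C −0.27 ± 0.11 (0.0461), the opposite direction to Pecam1. Cldn5 was well above background on 3, 0, 0 and 3 arrays of series A to D and Flt1 on 2, 1, 0 and 1. The 1 pair that passed for Cldn5 was C against A (adjusted p = 0.0413). No Cldn5 spot of series C was well above background and the bound on the ratio was under 1, so no difference is given. The call was lost when any of 12 single arrays was left out (adjusted p up to 0.0968).

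Because series D shared every slide with another series, its arrays could also be set against those within a slide. The values for single slides are plain means of 2 or 3 arrays of D minus those of 5 or 6 others. Arms and times were not matched in them, so they mix time with series. Lum was higher in series D on all 7 slides, by 1.16 and 1.41 against series A, 1.98 and 3.12 against B, and 2.84 to 3.15 against C. Pdgfrb was higher in D than in A by 1.61 and 1.92 and than in B by 0.56 and 0.59, while its D minus C differences on the 3 slides ran from −0.70 to −0.58. Acta2 was higher in D by 0.26 to 0.68 on all 7. Dcn was higher in D on the 5 slides of B and C, by 0.22 to 1.06, with differences of −0.52 and −0.14 on the slides of A. Pecam1 was higher in D by 0.47 to 1.74 on 6 slides, with a difference of −0.01 on slide 7. With the slide as a block, Lum D minus A was 1.77 (adjusted p = 0.000383), D minus B 2.97 (6.17e-08) and D minus C 2.68 (6.14e-10), and for Pdgfrb the same contrasts were 1.79 (0.000375), 1.01 (0.0298) and −0.86 (0.00864). The block ended the calls of Pecam1 D against C (0.474) and Acta2 D against B (0.348).

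Markers of other cells moved with the series as well. Of 7 genes of dividing cells, 7 were lower in series D than in A, with a median difference of −2.17, beside 20% of all probes, and the summed level of the list, as the mean over its genes, ran from 1.30 to 2.92 in D and from 3.24 to 5.05 over A, B and C. The proliferation gene Mki67 had medians of 5.83, 5.91, 5.93 and 3.92 in series A to D. Of 7 oligodendrocyte genes 6 were lower in D than in C, with a median of −3.59, beside 23.7% of all probes, and the mean level of the list was 1.88, 2.92, 4.46 and 1.29 as medians of series A to D. The medians were 5.67, 5.39, 5.24 and 5.81 for 11 neuronal genes, 6.21, 6.64, 6.61 and 6.35 for 9 astrocyte genes, and 0.02, −1.18, −1.28 and −0.77 for 9 microglial genes. For 6 choroid plexus genes they were 0.81, 1.74, 2.16 and 1.26, and for 3 erythrocyte genes −2.66, −2.25, −2.06 and −1.95. The microglial marker Csf1r was well above background on 2, 1, 2 and 2 arrays of series A to D. The choroid plexus gene Ttr, by contrast, was well above background on all of them, with medians of 4.38, 6.34, 7.62 and 3.93. The part of these cells in the differences between series was not tested.

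Further genes of the same cell types were read from lists of 25 endothelial, 20 mural and 25 fibroblast genes and 24 genes of angiogenic signalling that were tested. The series effect passed for 20, 16, 23 and 21 of them, again beside 75.4% of all probes. The fibroblast list leaned towards series D. Against series A, 21 of 25 fibroblast genes were higher and 1 was lower in D, with a median difference of 1.80, beside 21.7% and 20% of all probes and a median of 0.01. Against series B the counts were 19 higher and 1 lower (median 1.79, background 28.9% and 24.1%), and against series C 17 higher and 2 lower (median 1.25, background 28.7% and 23.7%). For the endothelial list D against A gave 14 higher and 3 lower with a median of 0.53. Against B it gave 10 and 3 with 0.25, and against C 12 and 2 with 0.40. The mural list had 5 and 5 against A with a median of 0.19, 7 and 5 against B with 0.23, and 6 and 6 against C with 0.04. Angiogenic signalling had 7 and 8 against A with −0.05, 10 and 8 against B, and 10 and 7 against C.

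**Figure D2:**
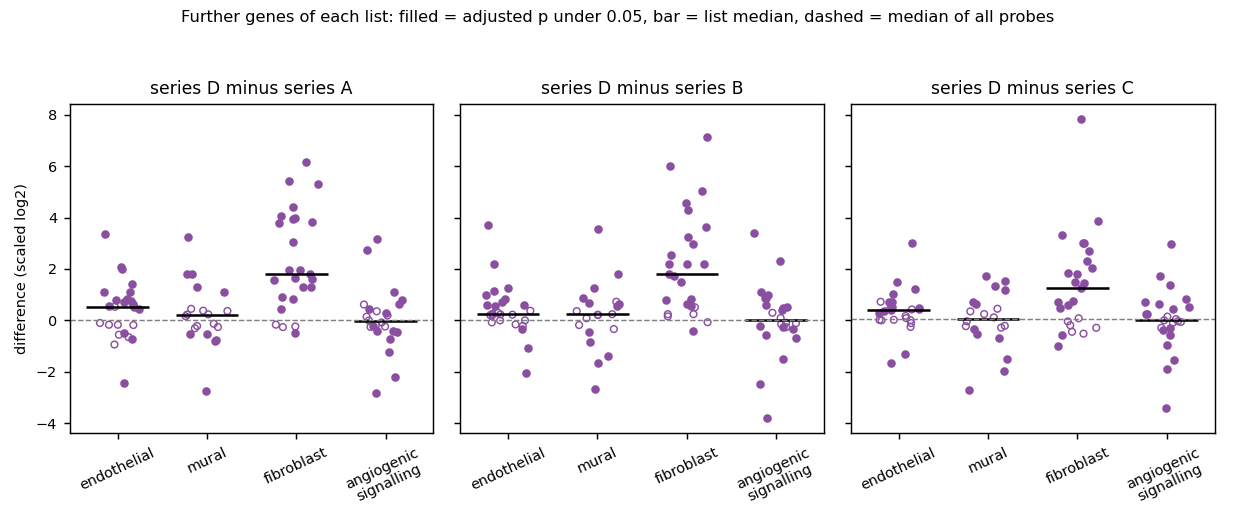
Differences of series D from series A, B and C (vertical axis, scaled log2) for the further genes of each list (horizontal axis), filled where the adjusted p was under 0.05, with a bar at the list median and a dashed line at the median of all probes. The fibroblast genes spread upwards, with medians of 1.80, 1.79 and 1.25, and the endothelial medians were 0.53, 0.25 and 0.40. The mural medians were 0.19, 0.23 and 0.04, and the angiogenic signalling medians lay near the dashed line.

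The fibroblast genes with the smallest p for the series effect were the collagen chains Col1a2 and Col3a1, the growth factor Igf2 and Serpinf1, which encodes the antiangiogenic factor PEDF. Col1a2 had lowest, median and highest levels of 0.33, 2.01 and 2.88 in series A, 1.52, 2.02 and 3.63 in B, 3.55, 4.54 and 5.39 in C, and 6.85, 7.13 and 7.88 in D. Series D overlapped no other series, and series C lay between. Col1a2 in D exceeded A by 5.32 ± 0.19 (adjusted p = 2.15e-23) and Col3a1 in D exceeded B by 7.12 ± 0.25 (6.18e-24). The medians of Col3a1 were −0.53, −1.32, 2.21 and 6.05 in series A to D, those of Igf2 1.95, 1.66, 1.94 and 5.04, and those of Serpinf1 0.11, 1.28, 3.51 and 4.32. Col1a2 and Col3a1 were thus in the order D, C, then A and B, which neither Lum nor Dcn followed, since both had their lowest medians in B and C. Their medians were computed per gene and not compared in level.

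The mural genes chosen by the same rule did not share a direction. Zic1, a transcription factor, was higher in series D than in A by 1.81 ± 0.10 (adjusted p = 2.12e-17). Tbx18, a transcription factor of pericytes, was well above background on 0 of 11 arrays of series A and 15 of 15 of series D, which made it at least 3.14-fold higher in D (adjusted p = 5.56e-13). This bound divides the mean of the bright series by the lowest detected signal, array by array, of the dim series. Cspg4 (NG2), found on pericytes and on oligodendrocyte precursors, had medians of 6.42, 6.48, 6.39 and 3.88, with D minus A at −2.75 ± 0.19 (6.73e-15). The precursor marker Pdgfra, of the angiogenic signalling list, had medians of 7.51, 8.41, 8.21 and 4.78, the same order of D against the rest, with D minus B at −3.80 ± 0.18 (7.06e-20). Tagln, a smooth muscle gene, had D minus C at −1.98 ± 0.17 (7.63e-13), the opposite of Acta2.

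Among endothelial genes Itm2a was higher in series D than in A by 3.38 ± 0.18 (adjusted p = 1.70e-18), with medians of 0.25, 0.13, 0.84 and 3.88. Mfsd2a, the lipid transporter of the blood-brain barrier that also occurs outside vessels, went the other way at −2.44 ± 0.20 (5.13e-13). Clec14a was well above background on 1 of 11 arrays of series A and on all 12, all 17 and 14 of 15 of the others. The transcription factor Fli1 was well above background on 5 of 11 arrays of series A, all 12 of B, 14 of 17 of C and 14 of 15 of D. Both differed between series (adjusted p = 3.83e-10 and 3.62e-09), and no size is given because most of their spots in series A were not well above background. In angiogenic signalling, Acvrl1 (the receptor ALK1 of endothelial cells) was well above background on 14 of 15 arrays of series D and on 0 arrays of A, B and C. It was at least 2.33-fold, 2.31-fold and 2.43-fold higher in D than in A, B and C. Acvrl1 passed the detection filter only through series D, so its direction was set by the filter and is a description. Angpt1, the ligand that mural cells send to endothelium, had D minus A at −2.21 ± 0.16 (3.44e-14) and the receptor Notch1 at −1.25 ± 0.11 (2.09e-12).

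Time after treatment was read over the sham, 1 Hz and iTBS arrays together, with series in the fit. Of the 9 genes 4 changed with time, Lum (adjusted p = 0.000278), Dcn (0.000755), Pecam1 (0.00484) and Pdgfrb (0.00599), beside 27% of all probes. Against 0 h, only Lum at 48 h passed of 36 member comparisons, beside 10.8% of all probe comparisons. That count was unsteady: leaving out single arrays gave 1 to 4 changes and moved it in 23 of 55 cases, always upwards. Kdr did not pass (adjusted p = 0.561 in its own fit). Without series in the fit these 4 did not pass (adjusted p = 0.154 to 0.715).

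Over sham, 1 Hz and iTBS arrays together, Lum rose by 48 h by 1.14 ± 0.22 (adjusted p = 0.000133, beside 13.6% of probes higher at 48 h). In sham arrays alone with series in the fit, Lum at 48 h was higher by 0.46 ± 0.38 (limma, adjusted p = 0.62), which did not pass. Its sham, 1 Hz and iTBS arrays are listed here together from low to high, not in the order of the arms. At 0 h they were −0.61 and 0.12 in series A, −1.17, −0.91 and −0.79 in B, −1.53, −1.44 and −0.80 in C, and 0.59, 1.62 and 2.13 in D. At 48 h they were 0.32, 1.44 and 2.72 in A, −0.22 and 0.41 in B, −0.46, −0.24 and −0.03 in C, and 2.27, 2.29 and 2.58 in D. Among these arms the 48 h arrays of each of the 4 series lay above its 0 h arrays, although the times overlapped when the series were pooled. The untreated arrays, which are outside this comparison, were at 0.81 and 1.36 in series A at 0 h, above the lowest 48 h array of that series. At 24 h the difference was 0.60 ± 0.23 (0.0729).

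Dcn had its lowest mean at 8 h in every series, at 4.89, 4.04, 4.08 and 4.79 in A to D, with 1 array in series A. At 48 h its difference from 0 h was 0.28 ± 0.11 (adjusted p = 0.0501). Pecam1 and Pdgfrb, which passed for time as well, had no single time past the threshold against 0 h. Pecam1 at 8 h was −0.68 ± 0.20 (0.0543) and Pdgfrb at 48 h 0.55 ± 0.23 (0.0659).

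The course of Pdgfrb depended on the series. From the first to the last time its means were 0.93, 2.72, 0.12, 1.08 and 2.70 in series A, with 1 array each at 8 and 24 h, and 2.91, 3.34, 1.62, 2.84 and 3.74 in series B. They were 4.03, 4.12, 3.80, 4.02 and 4.12 in series C and 3.41, 3.43, 3.31, 3.34 and 3.41 in series D. In series B the 8 h arrays were 1.51, 1.61 and 1.72 and the 48 h arrays 3.72 and 3.75, so that arms of 1 series and time lay close together while times lay far apart. In series C and D the times were nearly level. The difference in course between series passed for Pdgfrb (adjusted p = 0.00033), Pecam1 (0.00672) and Cldn5 (0.0189), beside 39.4% of all probes. Pecam1 in series B had means of −1.36, −1.48, −2.71, −1.58 and −0.52, against −0.76, −0.85, −0.86, −0.35 and −0.34 in series C. Lum (0.192), Dcn (0.139), Acta2 (0.431), Cdh5 (0.11), Flt1 (0.122) and Rgs5 (0.551) did not pass, and Cldn5 was dim on nearly all arrays.

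**Figure D3:**
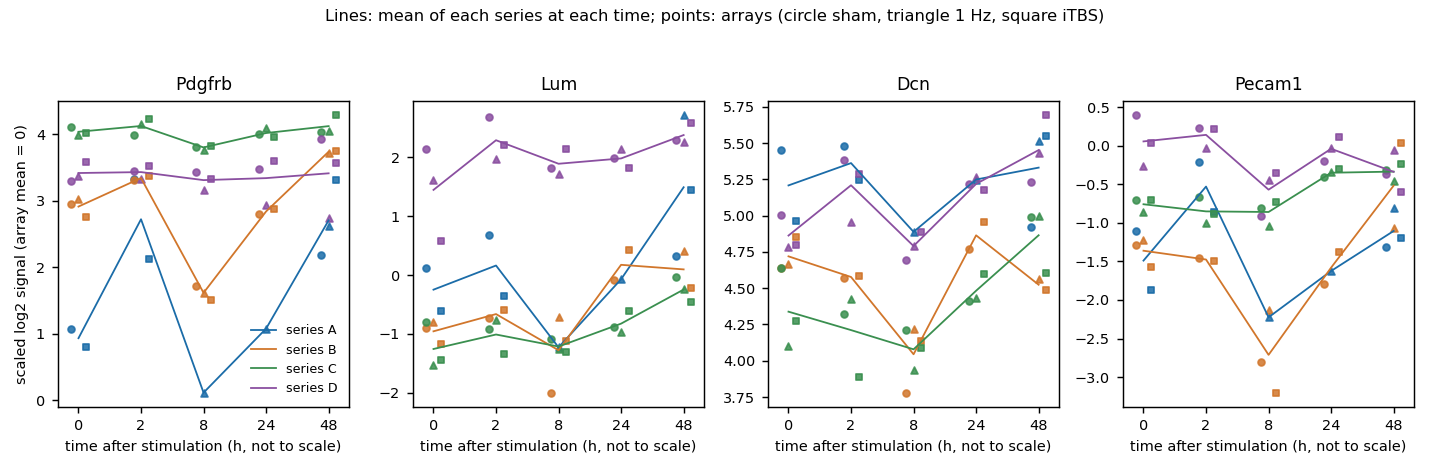
Scaled log2 signal (vertical axis) of Pdgfrb, Lum, Dcn and Pecam1 by time after treatment in hours (horizontal axis, not to scale), with a line through the means of each series and points for arrays (circle sham, triangle 1 Hz, square iTBS). Pdgfrb dipped at 8 h to 0.12 in series A and 1.62 in series B and stayed between 3.31 and 4.12 in C and D, while Lum ended higher at 48 h than at 0 h in all 4.

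Put as a spread, arrays of 1 series and time differed little from each other for these genes. The SD within series and time was 0.291 for Pdgfrb against 1.03 within arm and time, a ratio of 3.53. It was 0.488 against 1.51 for Lum, 0.298 against 0.811 for Pecam1, 0.203 against 0.461 for Dcn and 0.178 against 0.316 for Acta2. For Cdh5, well above background on every array, it was 0.230 against 0.285, a ratio of 1.24. For Cldn5, Flt1 and Rgs5, mostly at background, the ratios were 1.37, 1.16 and 1.04.

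Of the further genes, 8 of 25 endothelial, 5 of 20 mural, 9 of 25 fibroblast and 10 of 24 angiogenic signalling genes changed with time, beside 27% of all probes. At 48 h the fibroblast list had 8 higher and 2 lower genes, the endothelial list 5 and 1, the mural list 3 and 1, and angiogenic signalling 5 and 6, beside 13.6% of probes higher and 13.4% lower. Fmod and Bgn, which like Lum and Dcn encode small leucine-rich proteoglycans, were higher at 48 h by 1.16 ± 0.16 (adjusted p = 9.17e-07) and 1.20 ± 0.17 (1.18e-06). The smooth muscle myosin Myh11 was higher at 24 h by 1.26 ± 0.17 (3.88e-06) and at 48 h by 1.19 ± 0.17 (1.25e-06). Acta2, the actin of the same cells, did not pass for time. Lsr, a protein of tricellular junctions, was higher at 48 h by 0.50 ± 0.12 (0.0027), and the receptor S1pr1 by 0.49 ± 0.11 (0.00142). The transcription factor Erg was lower at 48 h at −0.60 ± 0.18 (0.0116), the Notch target Heyl at 8 h at −0.75 ± 0.17 (0.0117) and the receptor Notch4 at 48 h at −0.60 ± 0.12 (0.000171). When all probes of a gene were averaged, the time effects of Erg (0.607) and Notch4 (0.163) were lost. With no series in the fit those of Bgn (0.244), Heyl (0.526) and Erg (0.123) were lost. A replicate block ended those of Heyl (0.483) and Erg (0.101). Erg was also lost with normexp background correction (0.0656) and the slide block (0.0614). The course differed between series for Bgn (limma, adjusted p = 0.000331), Fmod (0.0014), S1pr1 (0.00917) and Myh11 (0.0108), beside 39.4% of all probes. Lsr (0.638), Heyl (0.0627), Erg (0.146) and Notch4 (0.17) did not pass. Of 9 astrocyte genes 6 were higher at 48 h, with a median of 0.49, and 0 were lower. Their part in these changes was not tested.

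Stimulation was compared with sham at each of the 5 times and averaged over them, and untreated with sham at 0 h, in fits of group means without series. None of the 9 genes passed in any of these 13 comparisons. The background was 0.0056% of all probes for 1 Hz at 2 h and iTBS at 8 h, 0.0028% for 1 Hz at 8 h and for untreated against sham, and 0 for the others, or 0.0014% over the 10 comparisons of a stimulated group with its sham. At an unadjusted p under 0.05, limma gave 0 members in 12 comparisons and 1 in the average of 1 Hz over times in these fits. That gene was Cldn5, at 0.85 ± 0.37 (unadjusted p = 0.0293, adjusted p = 1), whose probe was well above background on 6 of 55 arrays. In the separate fit Kdr had 1 such value, iTBS at 2 h, at −0.57 ± 0.25 (unadjusted p = 0.0305, adjusted p = 1).

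With the spread between series left in the error, the 95% intervals averaged over times for 1 Hz and iTBS minus sham were −0.18 to 0.23 and −0.16 to 0.24 for Cdh5, and −0.19 to 0.27 and −0.15 to 0.29 for Acta2. They were −0.38 to 0.31 and −0.36 to 0.31 for Dcn, −0.52 to 0.58 and −0.54 to 0.52 for Pecam1, −0.93 to 0.60 and −0.73 to 0.74 for Pdgfrb, and −0.98 to 1.10 and −1.14 to 0.85 for Lum. Over arms, Lum ranged from −1.997 to 2.69 in sham with a median of −0.03, from −1.53 to 2.72 in 1 Hz with −0.16, and from −1.44 to 2.58 in iTBS with −0.41. For Pdgfrb the medians were 3.43, 3.24 and 3.54 in sham, 1 Hz and iTBS. The arms overlapped almost fully.

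**Figure D4:**
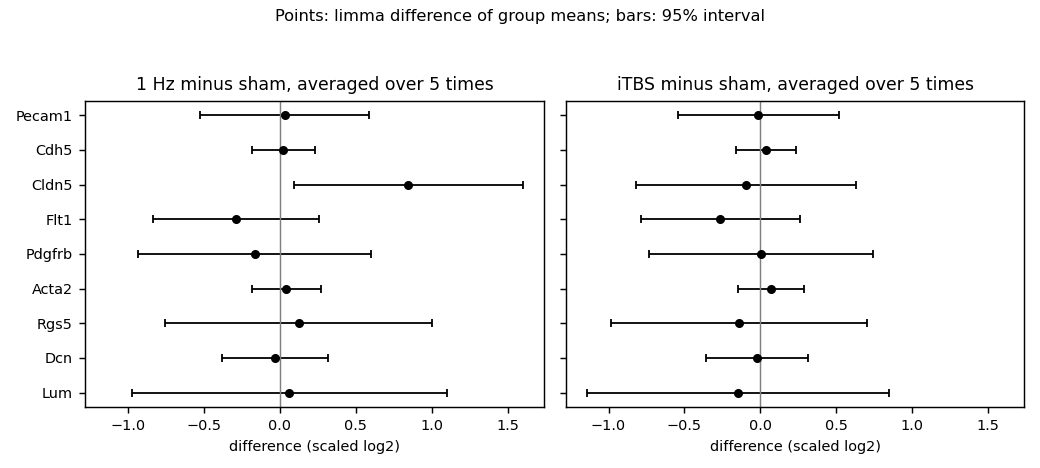
Difference from sham averaged over 5 times (horizontal axis, scaled log2) for 1 Hz and iTBS, for the genes on the vertical axis, with points at the limma difference and bars at the 95% interval, both of the fit without series. Every interval covers 0 except that of Cldn5 under 1 Hz, which did not pass after adjustment, and the bars of Lum and Pdgfrb are wider than those of Cdh5, Acta2 and Dcn.

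With each series at each time as a term, the arms were compared within arrays of 1 series and time. The average difference of Pdgfrb was then −0.14 ± 0.12 for 1 Hz and −0.01 ± 0.11 for iTBS, against standard errors of 0.38 and 0.36 without series. The 95% intervals for 1 Hz and iTBS narrowed to −0.39 to 0.10 and −0.23 to 0.21 for Pdgfrb, −0.23 to 0.48 and −0.40 to 0.24 for Lum, and −0.28 to 0.22 and −0.24 to 0.21 for Pecam1. They were −0.17 to 0.18 and −0.14 to 0.17 for Dcn, −0.12 to 0.18 and −0.06 to 0.20 for Acta2, and −0.22 to 0.16 and −0.15 to 0.18 for Cdh5. Again 0 of 9 genes passed in all 13 comparisons, beside 0 to 0.177% of all probes. At an unadjusted p under 0.05, limma gave 2 members for 1 Hz at 48 h, 1 for iTBS at 0 h, 1 for the 1 Hz average and 0 for the other comparisons. These were Rgs5 (2.13 ± 0.92, adjusted p = 0.295) and Lum (0.75 ± 0.36, 0.338) in 1 Hz at 48 h, Lum (−0.80 ± 0.32, 0.218) in iTBS at 0 h, and the dim Cldn5 (0.75 ± 0.29, adjusted p = 1) in the average.

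Time in sham cultures alone was tested with group means and no series, where 0 of the 9 passed, beside 0.0784% of probes, and 0 at an unadjusted p under 0.05 with limma. With series in the fit 0 of the 9 passed as well, beside 3.3% of probes. Limma then gave 2 members at an unadjusted p under 0.05, Dcn (adjusted p = 0.225) and Pecam1 (0.241). In the fit with series, all probes were not counted at that threshold. At single times 0 members passed, beside 0 to 0.0028% of probes without series and 0, 0.0308%, 0.737% and 1.61% at 2, 8, 24 and 48 h with it. The values lowest in p were those at 8 h, −0.56 ± 0.19 for Dcn (adjusted p = 0.436) and −0.96 ± 0.34 for Pecam1 (0.454).

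The genes whose levels ran most like each group over the 55 arrays were sought among genes with a symbol that are not members. Hhipl1 (Pearson r = 0.89), Lmcd1 (0.87), Eda (0.87), P2rx6 (0.87) and Gstm1 (0.84) were nearest to the mean of Pdgfrb and Acta2. Mas1 (0.92), Cpne8 (0.92), Mal2 (0.92), Calb1 (0.91) and Spats2l (0.90) were nearest to the mean of Dcn and Lum, and Lin7b (0.83), Zfp641 (0.82), Cst6 (0.81), Nudt14 (0.81) and Grm2 (0.81) to that of Pecam1 and Cdh5. No gene of the endothelial, mural or fibroblast lists was among these 15. Pdgfrb and Acta2 had an r of −0.29 and Pecam1 and Cdh5 −0.25, so those 2 means joined genes that did not run together. With members taken singly, the only list gene among the nearest was the fibroblast gene Efemp1, for Pdgfrb (0.88). Among members, Pecam1 and Pdgfrb had an r of 0.63 overall and 0.68 within series. Pdgfrb and Dcn had −0.32 overall and 0.32 within series, and Acta2 and Lum 0.59 and −0.07. The arrays share series and slides, so these values describe this set only.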

How the data were processed

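RNA from the cultures was labelled with Cy3 and hybridised to 56 Agilent SurePrint rat arrays of 1 colour. The authors deposited the scanner output of each array, with spot intensity after background subtraction (the processed signal, Feature Extraction 12.0.3.1, headers naming build rn4) and the detection calls used here. Control spots and outlier spots were left out, and the spots of a probe were averaged. A deposited series table with the authors' processed score per probe was not used for results.

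The log2 intensity was turned into a z-score within each array, as the study's methods state, and multiplied by the median SD (4.06). Probes well above background on at least 3 of 55 arrays were kept (35694 of 45178). Differences were tested with limma 3.58.1 in R 4.3.3, two-sided, with Benjamini-Hochberg adjustment over all probes and a threshold of 0.05. Stimulation and time in sham arrays alone were fitted with group means (39 residual degrees of freedom), and time over all arms and series with group plus series (36). Kdr, without a value on 1 array, was fitted on 54 arrays among 36027 probes. The scripts were tested on simulated data. Symbols and promoters came from RefSeq (GRCr8), and 0 columns of per-sample values were unassigned.

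The members and gene lists were chosen with earlier results of these data known. Of further genes, those named are up to 4 per list with the smallest p for series and up to 2 for time. The 5 genes most like each group were taken by Pearson r. The alternatives tried were other scalings, background corrections and filters, all 56 arrays, slide, replicate number, probes averaged, arms left out, and each array left out in turn. Leaving out series A or series D, the series-by-time term and the fit of Kdr were added after seeing the data. The number of arrays limits the precision.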

Additional observations from a re-analysis of the deposited data

Results flagged for a closer look

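In 4 of 79 gene-and-group sets of 4 arrays, 1 array stood apart from the others by Dixon's test, which chance does in about 1 of 20. Cldn5 in sham at 2 h was −2.37 in replicate 4, the only array of series D in that group, and −4.84 to −4.45 in the others. Cdh5 in 1 Hz at 8 h was 0.29 in replicate 1, the only array of series A at that time, and −0.81 to −0.68 in the others. Acta2 in iTBS at 48 h was −0.0504 in replicate 3, the only array of series C in that group, and 0.42 to 0.51 in the others. The median of Acta2 over series C was −0.02, so that array was typical of its series. Kdr in the untreated group was 1.41 in replicate 2 and 1.97 to 2.06 in the others. In the untreated set replicate 1, at 1.97, was of series A like replicate 2, and the others were of series C. The arrays of the Cldn5, Cdh5 and Acta2 sets each came from different series. Dixon's test does not take the series into account.

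The change over time differed between series by the interaction test of limma for Pdgfrb (adjusted p = 0.00033), Pecam1 (0.00672) and Cldn5 (0.0189), beside 39.4% of all probes. Series A had 1 array at 8 h and 1 at 24 h, and Cldn5 was well above background on 6 of 55 arrays.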

How the results depend on the processing

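Of 18 counts of members past the threshold 14 were 0. Of the 4 others, recomputed 43 times under alternatives and 220 times without single arrays, 12 and 23 values moved by over 1.5 times. The 5 members with a series effect became 8 with quantile normalization, 8 with normexp background correction and 3 with all 56 arrays, and the 25 pairs became 14 with all 56 arrays. The 4 members changing over time became 2 with all 56 arrays, 1 with a replicate block and 0 with no series in the fit. The 1 change from 0 h became 2 with the 75th percentile scaling, 3 with probes well above background on 50% of the arrays, 4 without series A, and 0 with a replicate block or with no series in the fit. Lum at 48 h was then 1.25 (adjusted p = 0.0747 with the block, 0.192 without series). Leaving out each array in turn gave 1 to 4 of these changes, moved in 23 of 55 cases, 24 to 27 pairs, 5 to 6 series effects and 4 time effects, and the most, 4, came without replicate 3 of sham at 2 h. 1 Hz at 2 h gave 3 members with all 56 arrays, where the array with the failed grid is 1 of 3, and 0 otherwise. The signs that turned were those of Flt1 in the iTBS average with normexp (0.00298, from −0.26), Cldn5 C minus A with the slide block (1.20, adjusted p = 0.299) and Cldn5 in 1 Hz at 2 h without replicate 3 (−0.87, from 1.33, and 3.54 without replicate 1). With sham and untreated arrays only, Pecam1 C minus A (adjusted p = 0.118) and D minus C (0.201), Acta2 C minus A (0.0638) and C minus B (0.316) and Cldn5 C minus A (0.491) did not pass. The causes were not tested. The 75th percentile scaling moved the median of all probes by up to 0.17 between groups. The mean r of deviations was 0.16 for arrays that share a replicate number and −0.06 for different numbers. For numbers 1 to 4 it was 0.21, 0.15, 0.07 and 0.36. Same-series arrays had a mean r of 0.40 and arrays of different series −0.13. Replicate numbers were not taken as pairs. Cldn5, Flt1 and Rgs5 were near background, which limits what their values show.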
